A study of Homo sapiens with 8 samples.

Results

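The 29 genes described here make cholesterol and fatty acids or control that synthesis. They were chosen by symbol as known targets or regulators of the sterol response, with earlier results of these data known. They are 29 of the 15041 genes listed in at least 1 of the count tables. Of these, 18 belong to the sterol branch, 7 to the fatty acid branch, and 4 are regulators or transport proteins. All 29 were listed in each of the 8 tables, and all 29 passed the filter on low counts. The cells were MDA-MB-231, a line from a human breast cancer of the triple-negative class, picked one by one. The study combined ionizing radiation with knockdown of ATM, a kinase activated by breaks in both DNA strands. There were 4 groups of 2 libraries: ATM knockdown cells given 5 Gy and kept in culture for 4 h, untreated ATM knockdown cells, wild-type (WT) cells given the same dose and time, and untreated WT cells. All groups grew in medium with fetal bovine serum, which supplies lipoprotein cholesterol. Each library held 46 to 48 hand-picked cells, amplified with a modified Smart-seq2 protocol and sequenced as 3' mRNA libraries. How ATM was knocked down, whether the line is 1 clone, and whether a group's libraries stem from different cultures are not given in the labels, so p-values here measure the spread between libraries, which may be technical. The sample titles also carry 1 suffix for all WT and another for all knockdown libraries, so that genotype and whatever handling went with the suffix cannot be told apart.

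As background, cholesterol is built from acetyl-CoA through mevalonate, farnesyl pyrophosphate, squalene and lanosterol, and fatty acids from acetyl-CoA through malonyl-CoA. When membranes of the endoplasmic reticulum are low in sterol, the SREBP transcription factors are carried to the Golgi apparatus, cleaved and sent to the nucleus. SREBF2 encodes the form that mainly drives sterol genes and SREBF1 the forms that mainly drive fatty acid genes, while INSIG1 holds the precursors back when sterol is plentiful. Breast cancer cells use both branches for membranes, and the desaturase SCD supplies them with monounsaturated fatty acids.

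SREBP binds next to the factor NF-Y at many of these genes, so the 250 bases upstream of the start site were searched on both strands for TCACNCCAC, a core of the sterol regulatory element, and for CCAAT, the NF-Y box. RefSeq promoters (GRCh38.p14) matched 25 of the 29 genes. The core stood in 1 of them, SREBF2, against 1.25% of 9786 tested genes with a promoter. CCAAT stood in 13 of 15 sterol genes, 3 of 6 fatty acid genes and 3 of 4 regulators, against 41.5% of all. A gene with several promoters in that table counted as holding a word if any of them did, and overlapping matches were each counted. Shown 5' to 3' on the strand of the gene are the SREBF2 promoter and those of the 4 members with a promoter in the table that passed a comparison below with the smallest p-values. Capitals mark both words, with ATTGG the CCAAT box on the other strand, and the last base lies next to the start site. The stretches are MVD (chr16:88663092-88663341, minus strand), FDPS (chr1:155308616-155308865, plus), MSMO1 (chr4:165327419-165327668, plus), SCD (chr10:100346983-100347232, plus) and SREBF2 (chr22:41832855-41833104, plus).
MVD: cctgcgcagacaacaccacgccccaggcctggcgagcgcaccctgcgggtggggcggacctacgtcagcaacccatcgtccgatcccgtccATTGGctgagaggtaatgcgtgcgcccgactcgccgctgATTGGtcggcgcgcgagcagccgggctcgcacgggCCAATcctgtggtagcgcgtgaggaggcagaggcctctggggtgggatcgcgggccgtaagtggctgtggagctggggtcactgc
FDPS: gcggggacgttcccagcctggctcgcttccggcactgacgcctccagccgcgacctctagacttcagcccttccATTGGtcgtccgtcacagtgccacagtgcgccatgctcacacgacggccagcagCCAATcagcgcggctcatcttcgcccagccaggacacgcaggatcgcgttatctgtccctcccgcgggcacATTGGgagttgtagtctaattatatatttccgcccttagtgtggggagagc
MSMO1: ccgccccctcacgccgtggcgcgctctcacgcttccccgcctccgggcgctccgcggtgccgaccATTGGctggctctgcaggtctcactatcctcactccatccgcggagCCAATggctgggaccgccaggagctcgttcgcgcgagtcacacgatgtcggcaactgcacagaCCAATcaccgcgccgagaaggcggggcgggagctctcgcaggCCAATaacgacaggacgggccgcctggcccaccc
SCD: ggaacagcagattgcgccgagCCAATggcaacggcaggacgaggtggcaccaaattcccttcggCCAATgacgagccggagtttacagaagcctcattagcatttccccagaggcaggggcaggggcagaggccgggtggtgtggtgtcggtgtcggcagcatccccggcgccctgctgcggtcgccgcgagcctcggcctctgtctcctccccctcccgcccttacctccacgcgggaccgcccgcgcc
SREBF2: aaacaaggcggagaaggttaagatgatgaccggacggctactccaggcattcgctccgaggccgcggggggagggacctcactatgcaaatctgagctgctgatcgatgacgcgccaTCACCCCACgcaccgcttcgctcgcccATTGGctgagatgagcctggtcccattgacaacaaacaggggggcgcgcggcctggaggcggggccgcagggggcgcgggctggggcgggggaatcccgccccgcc
MVD and FDPS each hold 3 CCAAT boxes, MSMO1 holds 4, SCD 2 and SREBF2 1. In SREBF2 the core begins 133 bases before the start site. These matches describe letters only and show no binding.

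The libraries held 9321268 to 24256471 counts in 363 kept cells, and 15 cells, all from knockdown libraries, fell under the minimum. Levels are CPM, the share of a library's counts times 1000000, after scaling, summed over the cells of a library, so fewer expressing cells and less RNA per cell cannot be told apart from them. VIM, CD44, AXL, CAV1 and MSN, markers of this mesenchymal line, stood at 214 to 2921 CPM, but SPARC, also on the list, was at 0 to 1.49 CPM. ESR1 was not listed in any table, PGR did not exceed 0.290 CPM and CDH1 did not exceed 2.03 CPM, while the keratin KRT8, listed as low, was not low, at 625 to 1302 CPM. Leukocyte, adipocyte and liver markers summed to at most 3.28 CPM and fibroblast markers to at most 19.3 CPM. Endothelial markers, nearly all PECAM1, summed to 0 to 6.18 CPM in knockdown cells, 2.54 to 4.24 CPM in irradiated WT cells and 19.9 and 32.9 CPM in untreated WT cells. ATM itself had 12.6 and 13.9 CPM in irradiated knockdown cells and 13.6 and 31.8 CPM in untreated knockdown cells, against 29.1 and 33.9 CPM in irradiated WT cells and 58.2 and 31.9 CPM in untreated WT cells. After irradiation both knockdown libraries lay below both WT libraries. The library labelled untreated knockdown replicate 2 (31.8 CPM) was level with untreated WT replicate 2 (31.9 CPM), against its label. It also lay above irradiated WT replicate 1 (29.1 CPM). In KRT8 (726 CPM) and EPCAM (51.2 CPM), also listed as low, that library lay within the range of the other knockdown libraries, outside that of WT. What lay behind its ATM level was not tested. Neither ATM difference between genotypes passed, after irradiation (log2 -1.25, adjusted p = 0.109) or untreated (log2 -0.98, adjusted p = 0.157).

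In WT cells irradiation was followed by lower SCD and MSMO1. SCD (ENSG00000099194.5, chr10:100347124-100364834), the desaturase that makes oleate, had 649 and 870.1 CPM in irradiated WT cells against 1256 and 1317 CPM in untreated WT cells. MSMO1 (ENSG00000052802.12, chr4:165327623-165343160), the methylsterol oxidase that takes methyl groups off lanosterol products, had 235 and 252 CPM in irradiated WT cells against 422 and 425 CPM in untreated WT cells. For both genes the irradiated libraries lay below the untreated ones, as in 22.1% of all genes. The log2 changes were -0.76 (SE 0.14, adjusted p = 0.0175) and -0.80 (SE 0.19, adjusted p = 0.044). These 2 of 29 members were the ones that passed, both downward, where 0.739% of all 12456 genes passed downward and 0.907% upward.

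The calls rest on few libraries. SCD no longer passed without irradiated WT replicate 1 (log2 -0.56, adjusted p = 0.101), the library with the fewest counts, nor in a fit of the 4 WT libraries alone (adjusted p = 0.0858). MSMO1 no longer passed without irradiated WT replicate 1 (adjusted p = 0.121) or 2 (adjusted p = 0.101), in the WT libraries alone (adjusted p = 0.074), or without the 65 cells whose total exceeded 2 times their library's median (log2 -0.49, adjusted p = 0.131).

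Among the other fatty acid genes, FASN, the synthase that builds palmitate, had 192 and 225 CPM in irradiated WT cells against 292 and 308 CPM in untreated WT cells (log2 -0.52, SE 0.16, adjusted p = 0.124). ELOVL6, which lengthens palmitate, had 128 and 145 CPM in irradiated WT cells against 208 and 216 CPM in untreated WT cells (log2 -0.63, adjusted p = 0.0919). FADS2, the delta-6 desaturase of polyunsaturated fatty acids, had 51.9 and 51.1 CPM in irradiated WT cells against 92.1 and 82.3 CPM in untreated WT cells (log2 -0.76, adjusted p = 0.112). In each of these 3 genes both irradiated libraries lay below both untreated ones, without passing the test. FADS1, the delta-5 desaturase, showed the same order of libraries, with 205 and 264 CPM in irradiated and 302 and 304 CPM in untreated WT cells (log2 -0.37, adjusted p = 0.345). FADS2 overlaps FEN1 on its own strand and FADS1 on the other. FEN1 was higher in irradiated WT cells (log2 0.97, adjusted p = 0.043), and the part of overlapping reads in these values was not tested. ACLY, the citrate lyase that supplies cytosolic acetyl-CoA to both branches, overlapped between the groups, with 190.2 and 211 CPM in irradiated and 220.0 and 196 CPM in untreated WT cells (log2 -0.05). ACACA, the carboxylase that makes malonyl-CoA, stayed under 2.83 CPM in every library and cannot be judged at this depth.

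The log2 change in WT cells was below 0 for all 7 fatty acid genes, with a median of -0.63 (-0.58 over the 6 without ACACA, whose change of -0.82 had an SE of 1.83), beside -0.01 over all genes tested, of which 51% had a change below 0. In 5 of the 7 the irradiated libraries lay below both untreated ones, as in 22.1% of all genes. In DESeq2's Wald test ELOVL6, FASN, FADS2 and the squalene synthase gene FDFT1 passed downward as well, at adjusted p-values of 0.0138 to 0.0299, and PMVK, the phosphomevalonate kinase, passed upward (adjusted p = 0.0226). That test passed 569 of all genes in either direction, where edgeR's test passed 113 upward and 92 downward. Without the largest cells 5 of the 7 were lower, with a median of -0.28, and SCD was the member that passed.

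The sterol branch moved less as a list in WT cells. Of its 18 genes 5 had a higher and 13 a lower level, with a median log2 change of -0.25, and without the largest cells 9 were higher and 9 lower, with a median of 0.01. PMVK went the other way from most, with 51.5 and 43.5 CPM in irradiated WT cells against 27.0 and 20.9 CPM in untreated WT cells (log2 0.99, SE 0.27, adjusted p = 0.0884). HSD17B7, the ketosteroid reductase of the pathway, had 19.7 and 19.0 CPM in irradiated WT cells against 46.3 and 38.8 CPM in untreated WT cells (log2 -1.13, adjusted p = 0.188). In both genes the libraries did not overlap, where 22.1% of all genes were lower without overlap. The share of all genes higher without overlap was not counted. HMGCS1, the synthase that opens the mevalonate pathway, had 7.47 and 14.8 CPM in irradiated WT cells against 20.9 and 14.5 CPM in untreated WT cells, which overlapped (log2 -0.65, adjusted p = 0.503).

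Among the regulators in WT cells, SREBF2 had 73.8 and 70.3 CPM after irradiation against 108 and 96.9 CPM untreated (log2 -0.51, adjusted p = 0.31). INSIG1 had 348 and 378 CPM in irradiated WT cells against 530.1 and 425 CPM in untreated WT cells (log2 -0.40, adjusted p = 0.256). SREBF1 had 52.4 and 75.7 CPM in irradiated WT cells against 59.4 and 66.0 CPM in untreated WT cells (log2 0.03, adjusted p = 0.984). The libraries overlapped for SREBF1 alone among the 4 regulators. SREBF2, INSIG1 and STARD4 were lower without overlap, as were 22.1% of all genes, and none of them passed.

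Other lists moved in the same libraries, and their part in these results was not tested. All 14 DNA replication genes listed were higher in irradiated than in untreated WT cells (median log2 1.16, 10 passed). They summed to 2078 and 3320 CPM in irradiated and 1316 and 1249 CPM in untreated WT cells. The 12 mitotic genes differed more between replicates than between treatments in WT, at 3619 and 1734 CPM after irradiation and 3981 and 1844 CPM untreated. Mitochondrially encoded genes made up 9.76% and 10.3% of the counts in irradiated and 9.36% and 9.63% in untreated WT cells.

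**Figure D1:**
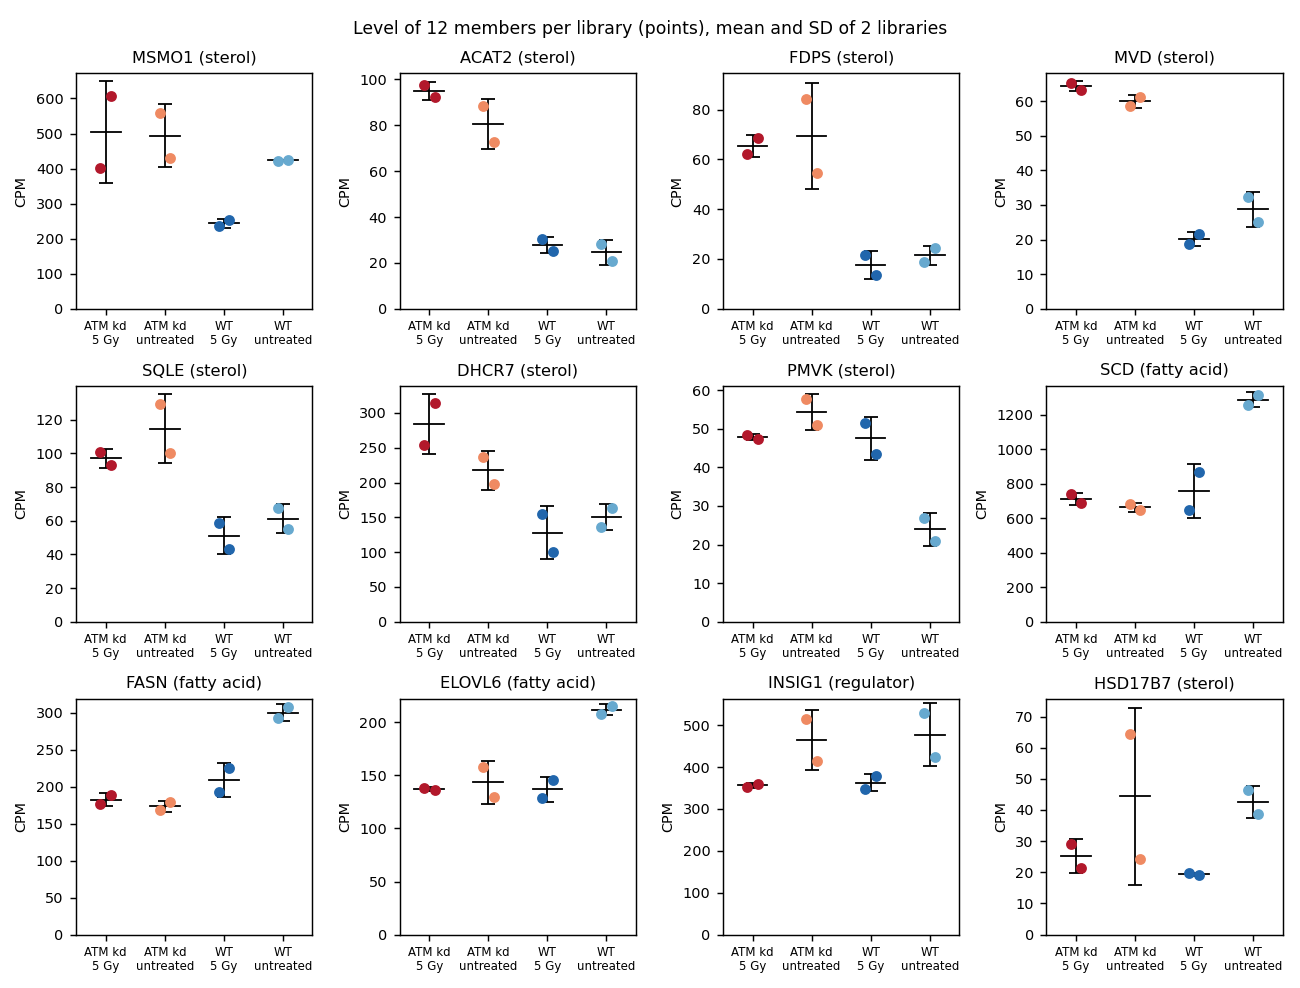
Level of 12 members in scaled CPM (vertical axes start at 0) by group, with each library as a point and the mean and SD of 2 libraries in black. SCD, FASN and ELOVL6 stand highest in untreated WT cells, while ACAT2, FDPS, MVD and SQLE stand higher in both knockdown groups than in either WT group.

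In ATM knockdown cells no member passed after irradiation, where 0.225% of all genes did in either direction by edgeR's test, and no member passed in DESeq2's test. The unadjusted p of INSIG1 alone was below 0.05, downward, as for 4.81% of all genes. SCD had 738 and 688 CPM in irradiated knockdown cells against 682 and 645 CPM in untreated knockdown cells (log2 0.10, SE 0.14, adjusted p = 0.907). MSMO1 had 402 and 608 CPM in irradiated knockdown cells against 557 and 431 CPM in untreated knockdown cells, which overlapped (log2 0.03, SE 0.18, adjusted p = 0.99). FASN had 176 and 188 CPM in irradiated and 168 and 178 CPM in untreated knockdown cells (log2 0.07, adjusted p = 0.958). The smallest p belonged to INSIG1, with 352 and 359.8 CPM in irradiated knockdown cells against 516 and 413 CPM in untreated knockdown cells (log2 -0.38, adjusted p = 0.474).

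HSD17B7 came next with 29.2 and 21.3 CPM in irradiated knockdown cells against 64.5 and 24.3 CPM in untreated knockdown cells (log2 -0.81, adjusted p = 0.583). Its direction rested on untreated knockdown replicate 1, without which the change was 0.04. STARD4, a carrier of cholesterol between membranes, had 35.9 and 52.0 CPM in irradiated knockdown cells against 53.2 and 68.6 CPM in untreated knockdown cells (log2 -0.47, adjusted p = 0.625). The sterol genes split 10 higher to 8 lower (median 0.01), where 50.8% of all genes were higher, and the fatty acid genes 4 to 3 (median 0.07). Without the largest cells 4 sterol genes were higher and 14 lower (median -0.23), and 3 fatty acid genes were higher and 4 lower (median -0.16). Without the library labelled untreated knockdown replicate 2, 6 sterol genes were higher and 12 lower (median -0.23). All 12 mitotic genes were lower in irradiated knockdown cells (median -1.01, 1 passed), at 1524 and 1242 CPM against 2434 and 3044 CPM untreated, and mitochondrial genes took 10.2% and 10.6% of the counts against at least 11.1% in untreated knockdown cells. The part of either in these values was not tested.

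The irradiation effects of the 2 genotypes did not differ past the threshold for any member by edgeR's test, where 0.185% of all genes passed in either direction. For 6 members the unadjusted p was under 0.05, as for 9.5% of all genes. SCD came closest, with a log2 change of -0.76 in WT and 0.10 in knockdown cells, a difference of 0.86 (SE 0.20, adjusted p = 0.132). It passed in DESeq2's test (adjusted p = 0.00627), with no filter on low counts (adjusted p = 0.00403), with a higher filter (adjusted p = 0.0464), and without irradiated WT replicate 2 (adjusted p = 0.022) or untreated WT replicate 1 (adjusted p = 0.0284). MSMO1 differed by 0.83 (SE 0.26, adjusted p = 0.304) and passed with no filter on low counts (adjusted p = 0.0301), but the difference was 0.24 without the largest cells (adjusted p = 0.807) and 0.50 without irradiated knockdown replicate 2 (adjusted p = 0.84). PMVK differed by -1.17 (SE 0.38, adjusted p = 0.319). Averaged over both genotypes no member passed either, where 1.49% of all genes did (186 genes, and 548 by DESeq2's test). The unadjusted p was under 0.05 for 8 of the members, all downward, as for 7.04% of all genes. INSIG1 (log2 -0.39, adjusted p = 0.0984), HSD17B7 (log2 -0.97, adjusted p = 0.103) and SCD (log2 -0.33, adjusted p = 0.121) had the smallest p-values. These 3 passed in DESeq2's test at 0.016, 0.0308 and 0.0314, and INSIG1 (adjusted p = 0.0409) and HSD17B7 (adjusted p = 0.00374) also without the library labelled untreated knockdown replicate 2.

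**Figure D2:**
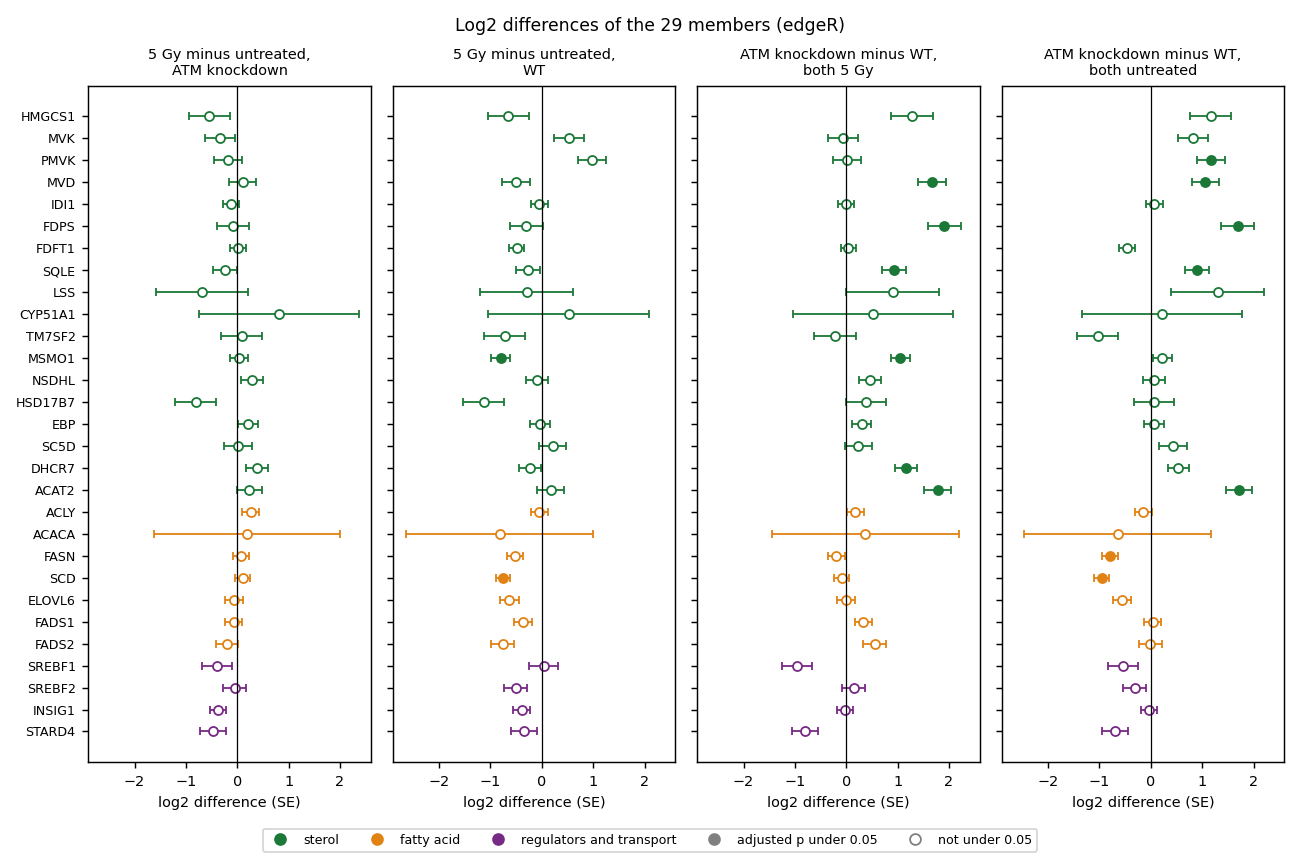
Log2 difference with its standard error (horizontal axes) of each of the 29 members (rows, coloured by branch) in 4 comparisons, with filled circles for an adjusted p under 0.05. In WT cells irradiation placed all 7 fatty acid genes left of 0 and in knockdown cells 3 of 7, and the filled circles are most numerous, with 7 and 6, in the comparisons between genotypes.

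The larger differences lay between genotypes. The 4 enzymes ACAT2, MVD, FDPS and SQLE of the sterol branch were higher in knockdown than in WT cells both after irradiation and without it. The irradiated and the untreated comparison share no library. In how many of all genes the knockdown and WT libraries did not overlap was not counted, here or for the genes below. After irradiation 6 sterol genes passed upward and no member passed downward, where 2.18% of all genes passed upward and 2.92% downward. In untreated cells 5 sterol genes passed upward and 2 fatty acid genes downward, where 4.83% and 5.11% of all genes did. The untreated knockdown group holds the library labelled replicate 2 whose ATM level was that of a WT library. Without it 4 sterol genes still passed upward and 2 fatty acid genes downward, and MVD did not pass.

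ACAT2 (ENSG00000120437.8, chr6:159760328-159779055), the cytosolic thiolase that joins 2 acetyl-CoA at the head of the mevalonate pathway, had 97.6 and 92.2 CPM in irradiated knockdown cells against 30.2 and 25.2 CPM in irradiated WT cells. Untreated, it had 88.3 and 72.8 CPM in knockdown cells against 28.3 and 20.8 CPM in WT cells. All 4 knockdown libraries lay above all 4 WT libraries, with log2 differences of 1.78 (SE 0.26, adjusted p = 0.00122) after irradiation and 1.71 (SE 0.26, adjusted p = 0.000744) untreated. ACAT2 overlaps SOD2 and TCP1 on the other strand, and whether counting used the strand is not given in the sources used here. SOD2 differed in the same direction, by 1.53 after irradiation (adjusted p = 0.0191) and 1.30 untreated (adjusted p = 0.0255). TCP1 differed by 0.48 (adjusted p = 0.132) and 0.60 (adjusted p = 0.0375). Between irradiated and untreated cells SOD2 changed by -1.45 in WT (adjusted p = 0.0488) and -1.22 in knockdown (adjusted p = 0.215). In the same 2 comparisons TCP1 changed by 0.32 and 0.20, and ACAT2 by 0.17 and 0.24. The part of SOD2 and TCP1 reads in the ACAT2 values was not tested.

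FDPS (ENSG00000160752.14, chr1:155308748-155320666), which makes farnesyl pyrophosphate for sterols and for protein prenylation, had 62.3 and 68.6 CPM in irradiated knockdown cells against 21.5 and 13.6 CPM in irradiated WT cells. Untreated, it had 84.4 and 54.4 CPM in knockdown cells against 18.7 and 24.3 CPM in WT cells. Again the genotypes did not overlap, with log2 differences of 1.91 (SE 0.33, adjusted p = 0.00316) and 1.69 (SE 0.32, adjusted p = 0.00349). The annotation names 8 FDPS pseudogenes, so reads of near-identical copies may be split or lost, and its level is uncertain. Pseudogenes of CYP51A1, HSD17B7, SCD and FADS2 are named there as well.

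MVD (ENSG00000167508.11, chr16:88651935-88663161), the decarboxylase that ends the mevalonate steps, had 65.3 and 63.3 CPM in irradiated knockdown cells against 18.8 and 21.7 CPM in irradiated WT cells (log2 1.66, SE 0.27, adjusted p = 0.00259). It had 58.6 and 61.3 CPM in untreated knockdown cells against 32.3 and 25.2 CPM in untreated WT cells (log2 1.06, SE 0.27, adjusted p = 0.0206). The 4 knockdown libraries lay between 58.6 and 65.3 CPM, above every WT library. The untreated call was lost without untreated WT replicate 2 (adjusted p = 0.131), without the library labelled untreated knockdown replicate 2 (adjusted p = 0.0672), without the largest cells (adjusted p = 0.0963) and in the 4 untreated libraries alone (adjusted p = 0.0667).

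SQLE, the squalene epoxidase, had 101 and 93.0 CPM in irradiated knockdown cells against 58.9 and 43.3 CPM in irradiated WT cells (log2 0.93, SE 0.24, adjusted p = 0.0337). It had 129 and 100.2 CPM in untreated knockdown cells against 67.4 and 55.1 CPM in untreated WT cells (log2 0.90, SE 0.23, adjusted p = 0.0235). All 4 knockdown libraries were above all 4 WT libraries. The irradiated call was lost without irradiated WT replicate 2 (adjusted p = 0.244), without irradiated knockdown replicate 1 (adjusted p = 0.16) or 2 (adjusted p = 0.0976), without the largest cells (adjusted p = 0.177) and on the mean CPM per cell (adjusted p = 0.0681). The untreated call was lost without untreated WT replicate 2 (adjusted p = 0.114), without untreated knockdown replicate 1 (adjusted p = 0.144) and in the untreated libraries alone (adjusted p = 0.0541).

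In the irradiated comparison MSMO1 and DHCR7 passed as well. MSMO1 had 402 and 608 CPM in irradiated knockdown cells against 235 and 252 CPM in irradiated WT cells (log2 1.05, SE 0.19, adjusted p = 0.00424), and untreated the difference was 0.22 (SE 0.18, adjusted p = 0.499). In irradiated knockdown replicate 2 a single cell held 34.7% of the MSMO1 counts, and without that library the difference was 0.72 (adjusted p = 0.0513), or without the largest cells 0.50 (adjusted p = 0.0568). DHCR7, the reductase of the last step to cholesterol, had 254 and 314 CPM in irradiated knockdown cells against 155 and 101 CPM in irradiated WT cells (log2 1.15, SE 0.21, adjusted p = 0.00561). Untreated, DHCR7 had 237 and 197 CPM in knockdown cells against 137 and 163 CPM in WT cells (log2 0.54, SE 0.21, adjusted p = 0.13). The groups did not overlap in either treatment for DHCR7. In irradiated knockdown replicate 2 a single cell held 28.0% of the DHCR7 counts, against 8.44% in replicate 1. Such shares were not particular to MSMO1 and DHCR7, since in replicate 2 they were 37.7% for SC5D and 35.3% for HMGCS1.

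PMVK passed in untreated cells, with 57.7 and 51.0 CPM in knockdown cells against 27.0 and 20.9 CPM in WT cells (log2 1.18, SE 0.27, adjusted p = 0.0129). After irradiation its levels met, with 48.4 and 47.3 CPM in knockdown cells between the 51.5 and 43.5 CPM of WT cells (log2 0.01, SE 0.27, adjusted p = 0.993). The untreated call was lost without untreated WT replicate 2 (adjusted p = 0.0813) and in the untreated libraries alone (adjusted p = 0.0573). The difference between both differences is the one given above between irradiation effects, and it did not pass for PMVK, MSMO1 or DHCR7 (adjusted p = 0.319, 0.304 and 0.543).

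The fatty acid enzymes SCD and FASN were lower in untreated knockdown cells. SCD had 682 and 645 CPM in untreated knockdown cells against 1256 and 1317 CPM in untreated WT cells (log2 -0.96, SE 0.14, adjusted p = 0.000648). FASN had 168 and 178 CPM in untreated knockdown cells against 292 and 308 CPM in untreated WT cells (log2 -0.79, SE 0.16, adjusted p = 0.00568). For both genes the groups stood far apart relative to the spread between replicates. After irradiation SCD had 738 and 688 CPM in knockdown cells, between the 649 and 870.1 CPM of WT cells (log2 -0.09, adjusted p = 0.8), and FASN differed by -0.20 (adjusted p = 0.569). FASN lost its untreated call on the mean CPM per cell, where each cell counts equally (log2 -0.31, adjusted p = 0.234). ELOVL6 came near, with 158 and 129 CPM in untreated knockdown cells against 208 and 216 CPM in untreated WT cells (log2 -0.56, adjusted p = 0.0564).

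Across the branch 16 of 18 sterol genes were higher in untreated knockdown cells (median log2 0.49), beside a median of -0.01 over all genes tested, of which 49.3% were higher. After irradiation 15 of 18 were higher (median 0.49), where 49.7% of all genes were, or 17 with no scaling beyond library totals. Without the largest cells the counts were 15 and 14 of 18, with medians of 0.45 and 0.25. The fatty acid genes were lower in 6 of 7 cases in untreated knockdown cells (median -0.56), where 50.5% of all genes were lower, and in 5 of 7 with no scaling. Over the 6 without ACACA the median was -0.35. Without the library labelled untreated knockdown replicate 2, 4 of 7 were lower (median -0.19), and 16 of 18 sterol genes were higher (median 0.84). Without the largest cells 3 of 7 were lower in untreated cells, with a median of 0.05, and SCD, ELOVL6 and FASN passed downward. After irradiation 5 of 7 were higher in knockdown cells (median 0.17), or 4 with DESeq2's size factors and 3 without the largest cells (median -0.22). Among markers listed as low in this line, KRT8 had 625 to 773 CPM in knockdown cells and 1046 to 1302 CPM in WT cells, while EPCAM had 46.8 to 60.8 CPM in knockdown cells and 15.6 to 31.0 CPM in WT cells. Untreated, mitochondrial genes took at least 11.1% of the counts in knockdown cells and at most 9.63% in WT cells, and the median number of genes per cell was 5874 and 6053 in knockdown cells and 7328.5 and 7276 in WT cells. After irradiation these medians were 7537 and 6900 in knockdown cells and 6400.5 and 6912.5 in WT cells. After irradiation all 12 mitotic genes (median log2 -0.97, 4 passed) and 13 of 14 replication genes (median -0.41, 1 passed) were lower in knockdown cells, and untreated 12 of 14 replication genes were higher (median 0.51, 1 passed). The part of these values in the genotype differences was not tested.

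HMGCS1 had 23.9 and 30.7 CPM in irradiated knockdown cells against 7.47 and 14.8 CPM in irradiated WT cells (log2 1.28, SE 0.40, adjusted p = 0.0875). It had 33.8 and 45.7 CPM in untreated knockdown cells against 20.9 and 14.5 CPM in untreated WT cells (log2 1.17, SE 0.40, adjusted p = 0.0794). Its 4 knockdown libraries lay above its 4 WT libraries, and it passed both comparisons in DESeq2's test (adjusted p = 0.0424 and 0.0487). MVK, the mevalonate kinase, which overlaps MMAB on the other strand, differed by -0.06 after irradiation and 0.81 untreated (adjusted p = 0.0974). IDI1, the isomerase of isopentenyl pyrophosphate, lay within 236 to 299.9 CPM in all 8 libraries. FDFT1 had 230.5 and 214 CPM in untreated knockdown cells against 315 and 296 CPM in untreated WT cells (log2 -0.46, adjusted p = 0.0672).

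NSDHL and EBP, which act between lanosterol and cholesterol, and SC5D, the sterol desaturase, had log2 differences of 0.06 to 0.46 across both genotype comparisons, none past the threshold. TM7SF2, a sterol reductase that shares its strand and part of its locus with VPS51, had 23.7 and 11.9 CPM in untreated knockdown cells against 27.5 and 45.2 CPM in untreated WT cells (log2 -1.03, adjusted p = 0.125). The lanosterol synthase gene LSS did not exceed 7.48 CPM and the lanosterol demethylase gene CYP51A1 did not exceed 2.79 CPM in any library. No difference of theirs could be judged at such levels. CYP51A1 is overlapped on its own strand by 2 protein-coding genes, and the part of that overlap in its low level was not tested.

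None of the 4 regulators passed upward or downward between genotypes in the main edgeR fit. By the same adjusted p, 2.92% of all genes passed downward after irradiation and 5.11% untreated. SREBF2 had 67.8 and 91.2 CPM in irradiated knockdown cells against 73.8 and 70.3 CPM in irradiated WT cells (log2 0.14, adjusted p = 0.802). Untreated it had 75.8 and 88.8 CPM in knockdown cells against 108 and 96.9 CPM in WT cells (log2 -0.32, adjusted p = 0.409). SREBF1 had 26.3 and 39.3 CPM in irradiated knockdown cells against 52.4 and 75.7 CPM in irradiated WT cells (log2 -0.97, SE 0.29, adjusted p = 0.0761). Neither gene passed, though the SREBF1 libraries did not overlap.

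Untreated, SREBF1 had 36.3 and 49.6 CPM in knockdown cells against 59.4 and 66.0 CPM in WT cells (log2 -0.55, adjusted p = 0.275). STARD4 had 35.9 and 52.0 CPM in irradiated knockdown cells against 68.3 and 85.9 CPM in irradiated WT cells (log2 -0.81, adjusted p = 0.086). INSIG1, itself a sterol target, differed by -0.03 after irradiation (SE 0.16, adjusted p = 0.959) and -0.04 untreated (SE 0.16, adjusted p = 0.912). In DESeq2's test SREBF1 and STARD4 passed downward in irradiated knockdown cells (adjusted p = 0.0293 and 0.0352). That test passed 1088 of all genes in either direction, where edgeR's test passed 271 upward and 364 downward. With no filter on low counts, edgeR's test also passed 2 members downward in this comparison, among 1044 genes in either direction.

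Summed over its 18 genes, the sterol branch had 2062 and 2471 CPM in irradiated knockdown cells, 2432 and 1978 CPM in untreated knockdown cells, 1556 and 1485 CPM in irradiated WT cells, and 1931 and 1761 CPM in untreated WT cells. Every knockdown library lay above every WT library. The fatty acid branch had 1679 and 1582 CPM in irradiated knockdown cells, 1608 and 1525 CPM in untreated knockdown cells, 1417 and 1768 CPM in irradiated WT cells, and 2373 and 2423 CPM in untreated WT cells. Here the untreated WT libraries stood above the other 6. SCD made up 42.3% to 54.3% of that sum, and without it the fatty acid branch had 941 and 895 CPM in irradiated knockdown cells, 926 and 880.0 CPM in untreated knockdown cells, 768 and 898 CPM in irradiated WT cells, and 1117 and 1107 CPM in untreated WT cells, which again stood highest.

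The ratio of the sterol to the fatty acid sum was 1.39 ± 0.236 in irradiated and 1.40 ± 0.152 in untreated knockdown cells, and 0.969 ± 0.183 in irradiated and 0.770 ± 0.0616 in untreated WT cells (SD, n = 2 each). All 4 knockdown libraries, at 1.23 to 1.56, lay above all 4 WT libraries, at 0.727 to 1.10. Between irradiated and untreated libraries the ratio overlapped in knockdown cells and did not in WT cells. A ratio of sums over different genes describes the balance of counts and gives no order of transcript numbers. Between irradiated genotypes the sterol sum differed by 0.57 on the log2 scale, and by 0.32 without the largest cells.

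**Figure D3:**
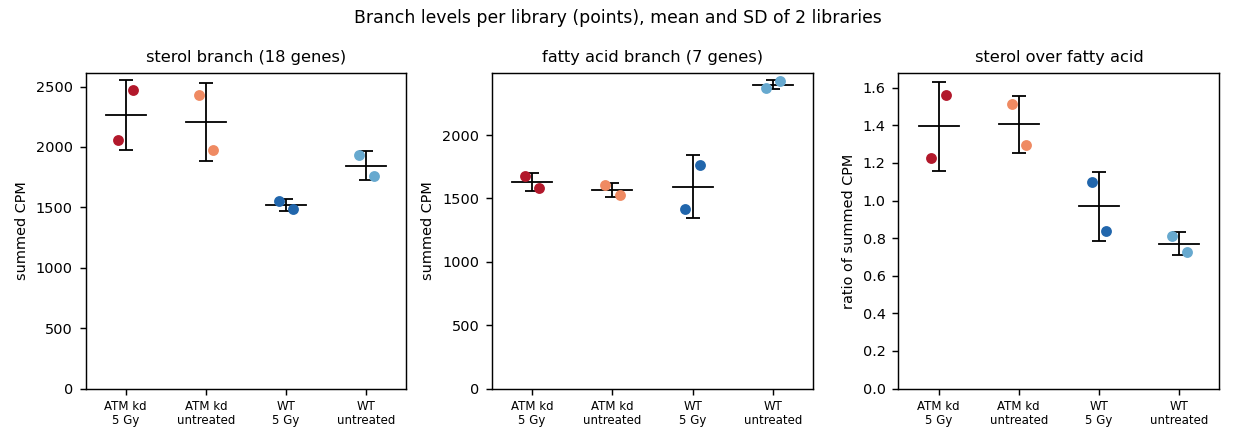
Summed level of the 18 sterol genes (left) and the 7 fatty acid genes (middle), in scaled CPM, and their ratio (right), by group, with libraries as points and the mean and SD of 2 libraries in black. The ratio lies between 1.23 and 1.56 in the knockdown libraries and between 0.727 and 1.10 in the WT libraries.

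Per cell, counts were thinned to 71000 in each cell, a depth reached by 327 cells and not by 36. Median sterol counts per cell were 128 and 134 in irradiated knockdown libraries, 152 and 124 in untreated knockdown libraries, 89 and 102.5 in irradiated WT libraries, and 108 and 111.5 in untreated WT libraries. Median fatty acid counts were 114 and 98 in irradiated knockdown libraries, 114 and 116 in untreated knockdown libraries, 91 and 128 in irradiated WT libraries, and 158 and 156 in untreated WT libraries. Knockdown libraries lay above WT libraries for the sterol branch, and the untreated WT libraries above the other 6 for the fatty acid branch. Single cells spread widely, from 26 to 453 sterol counts and from 25 to 366 fatty acid counts.

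Cells with more sterol than fatty acid counts were 65.1% (28 of 43, exact 95% interval 49.1% to 79.0%) and 72.5% (29 of 40, 56.1% to 85.4%) of the irradiated knockdown libraries. They were 72.7% (24 of 33, 54.5% to 86.7%) and 69.2% (27 of 39, 52.4% to 83%) of the untreated knockdown libraries. In irradiated WT libraries they were 51.4% (19 of 37, 34.4% to 68.1%) and 26.1% (12 of 46, 14.3% to 41.1%), and in untreated WT libraries 30.2% (13 of 43, 17.2% to 46.1%) and 26.1% (12 of 46, 14.3% to 41.1%). The knockdown libraries lay above the WT libraries, and irradiated WT replicate 1 stood apart from its replicate. These intervals cover counting error only.

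Within a library, cells with more sterol counts tended to have more fatty acid counts. Spearman's rho across the 33 to 46 cells of a library was 0.45 and 0.52 in irradiated knockdown, 0.60 and 0.52 in untreated knockdown, 0.30 and 0.32 in irradiated WT and 0.36 and 0.25 in untreated WT libraries. It is a description, since cells of 1 library share their handling. The members with the highest median rho to the rest of their own branch were MSMO1 (0.59), FDFT1 (0.58), IDI1 (0.54), SCD and DHCR7 (0.44 each). Fatty acid counts went with replication counts at rho of -0.54 to -0.05 and with mitotic counts at -0.49 to 0.09. For sterol counts these ranges were -0.41 to 0.12 and -0.43 to 0.26. The part of the cell cycle in the branch values was not tested.

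**Figure D4:**
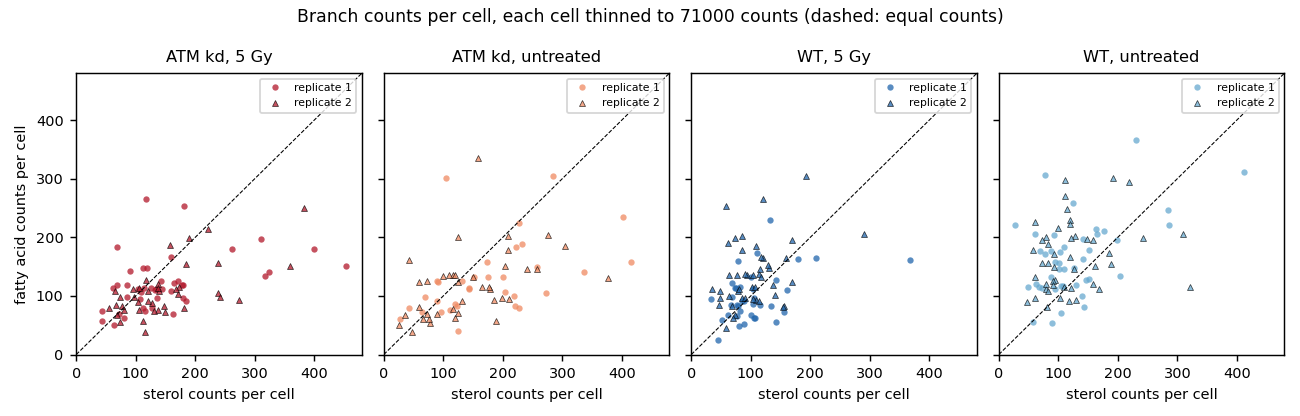
Fatty acid counts against sterol counts of each cell (327 cells thinned to 71000 counts), by group, with replicates 1 and 2 as circles and triangles and a dashed line where both are equal. Most knockdown cells lie right of the line (65.1% to 72.7% per library), and most cells of the untreated WT libraries and of irradiated WT replicate 2 lie left of it.

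Of the 4 enzymes higher in knockdown cells in both treatments, FDPS alone had a count in a larger share of cells in every knockdown library than in any WT library at this depth. FDPS had a count in 88.4% and 95% of cells in irradiated knockdown libraries and in 87.9% and 82.1% in untreated knockdown libraries, against 59.5% and 52.2% in irradiated WT and 53.5% and 63.0% in untreated WT libraries. ACAT2 had a count in 66.7% to 95% of cells per knockdown library and 47.8% to 78.4% per WT library, MVD in 59.0% to 81.8% and 40.5% to 62.8%, and SQLE in 71.8% to 87.9% and 67.4% to 72.1%, each overlapping. HMGCS1, whose level passed neither genotype comparison, had a count in 51.2% and 55.0% of irradiated knockdown cells and 66.7% and 56.4% of untreated knockdown cells, against 21.6% and 34.8% of irradiated WT and 37.2% and 34.8% of untreated WT cells. STARD4 ran the other way, at 60.5% and 65.0% in irradiated knockdown and 57.6% and 66.7% in untreated knockdown libraries, against 91.9% and 84.8% in irradiated WT and 95.3% and 84.8% in untreated WT libraries. For FDPS, HMGCS1 and STARD4 the 4 knockdown and the 4 WT libraries did not overlap. How many of all genes separate the genotypes in this way was not counted. Exact 95% intervals of a share of cells were up to 35.3 percentage points wide. SCD had a count in every thinned cell of every library.

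**Figure D5:**
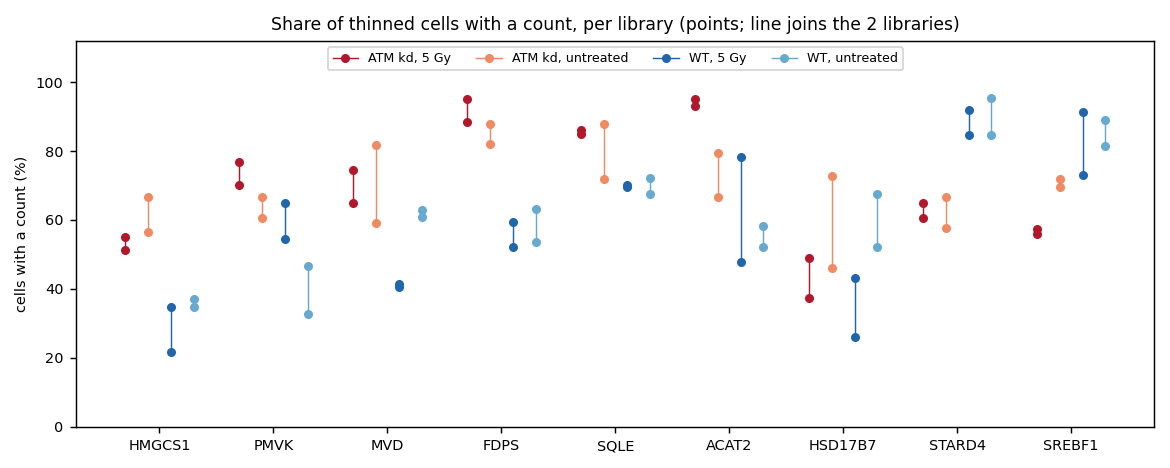
Share of thinned cells with at least 1 count (percent) for 9 members, with each library as a point and a line joining the 2 libraries of a group. FDPS and HMGCS1 are found in more cells of the knockdown libraries and STARD4 in fewer, without overlap between the genotypes.

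Beyond the members, 21 other genes of sterol and isoprenoid metabolism and 26 of fatty acid metabolism were tested. In irradiated against untreated WT cells 1 of these 47 passed, INSIG2, the second retention protein of SREBP, with 82.0 and 72.2 CPM in irradiated against 146 and 133 CPM in untreated WT cells (log2 -0.86, SE 0.20, adjusted p = 0.0424). That call was lost without any 1 of the 4 WT libraries (adjusted p = 0.0578 to 0.234) and without the largest cells (adjusted p = 0.33). In knockdown cells the smallest p of the 47 belonged to TMEM97, a sterol-regulated membrane protein, which did not pass (log2 0.62, adjusted p = 0.451).

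Between genotypes TMEM97 was higher in knockdown cells after irradiation (log2 0.94, adjusted p = 0.0357) and untreated (log2 0.82, adjusted p = 0.0427). TECR, the last enzyme of very long chain fatty acid elongation, was lower in knockdown cells after irradiation (log2 -0.76, adjusted p = 0.0469) and untreated (log2 -0.75, adjusted p = 0.0312). Each of these 4 calls was lost when some library was left out, at adjusted p-values of up to 0.358.

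In untreated cells NPC1, which exports cholesterol from lysosomes, was higher in knockdown cells, with 54.8 and 51.1 CPM against 16.2 and 22.9 CPM in WT cells (log2 1.43, SE 0.34, adjusted p = 0.0138, and 0.0685 without untreated WT replicate 1). INSIG2 was lower (log2 -0.74, adjusted p = 0.0274, up to 0.116 without 1 library and 0.758 without the largest cells). After irradiation the elongase gene ELOVL1 was higher in knockdown cells (log2 0.98, adjusted p = 0.0289, and up to 0.229 without 1 library).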

How the data were processed

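Per the labels' protocols, single MDA-MB-231 cells were picked by mouth pipetting, amplified with a modified Smart-seq2 method and made into 3' mRNA libraries. Per the submitters' processing notes, Trimmomatic 0.36, HISAT2 2.1.0, HTSeq 0.9.1 and hg38 were used. The authors deposited whole-number counts per coding gene and cell. Whether they count reads or molecules, and with which strand setting, is not given in the sources used here.

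Cells with at least 1000 genes and 5000 counts were kept and summed per library. Genes passing filterByExpr (12456) were scaled by TMM and fitted over all 4 groups with edgeR 4.0.16 (R 4.3.3), using the quasi-likelihood test and Benjamini-Hochberg adjustment over all genes, with 0.05 as threshold. Standard errors come from the same fit. The steps were tested on simulated data. Alternatives used DESeq2 1.42.0, limma 3.58.1, other filters and scalings, and fewer cells or libraries. Coordinates are those of GENCODE 29. Named genes were those that passed, the 3 smallest p-values of a comparison and 10 fixed members. The members and all lists were chosen with earlier results of these data known. Some items are not reported here.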

Additional observations from a re-analysis of the deposited data

How the results depend on the processing

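Of 15 calls of members, 7 were kept under every alternative: SCD untreated, ACAT2 and FDPS in both genotype comparisons, and MVD and DHCR7 after irradiation. With 2 libraries a group, leaving 1 out leaves a lone library that is assumed to vary like the others. No paired analysis was possible because the labels give no replicate numbers that tie libraries of different groups.

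With no filter on low counts, genes passing numbered 534 for irradiation in WT, 236 in knockdown, 580 averaged, 195 for the difference of effects and 1044 between irradiated genotypes; members passing were 4 lower in WT, 4 lower averaged, 2 higher for the difference and 2 lower between irradiated genotypes. Keeping genes whose mean log2 CPM reached 5, the genes were 324 in WT, 44 in knockdown and 45 for the difference, and the members 6 lower in WT, 3 lower averaged, 1 higher for the difference, 4 lower between untreated and 2 lower between irradiated genotypes. DESeq2's Wald test gave 569 genes in WT, 178 in knockdown, 548 averaged, 135 for the difference and 1088 between irradiated genotypes, with members 1 higher and 6 lower in WT, 3 lower averaged, 1 higher for the difference, 4 lower between untreated and 2 lower between irradiated genotypes. The mean CPM over cells with limma gave 122 genes in knockdown and 369 averaged, with 2 members lower averaged and 1 lower between irradiated genotypes. Fits of the compared groups alone gave 33 genes and 0 members lower in WT (edgeR), 65 genes in knockdown, and 718 genes and 2 members higher between untreated genotypes.

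Without the 65 largest cells, 130 genes passed in WT and 68 in knockdown, and members lower numbered 1 in WT, 1 averaged, 4 between untreated and 1 between irradiated genotypes. The sterol branch then differed by -0.075 (summed), -0.059 (mean log2) and -0.15 (per thinned cell) for irradiation in WT, and by 0.32, 0.43 and 0.40 between irradiated genotypes. The fatty acid branch summed then differed by -0.041 for irradiation in knockdown, a reversal, by -0.57 between untreated and -0.14 between irradiated genotypes, and its mean log2 by -0.20 in WT, -0.19 and -0.069. With the mean of log2(CPM + 1) the sterol branch differed by -0.18 in WT and 0.51 between untreated genotypes, and the fatty acid branch by -0.38 between untreated genotypes. With a pseudocount of 5 the sterol mean log2 differed by 0.58 between irradiated genotypes. With the mean CPM over cells it differed by 0.55 there, while the fatty acid sum differed by -0.090 for irradiation in knockdown, a reversal, and by -0.46 between untreated genotypes, where its mean log2 differed by -0.21. Thinned to 35500 counts the sterol branch per cell differed by -0.22 in WT and 0.43 between irradiated genotypes.

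Leaving out 1 library, genes passing ranged from 89 to 376 in WT, 44 to 142 in knockdown, 137 to 375 averaged, 31 to 128 for the difference and 308 to 980 between irradiated genotypes. Members lower ranged from 0 to 3 in WT, 0 to 2 averaged and 0 to 2 between irradiated genotypes, members higher from 0 to 1 for the difference and 2 to 6 between untreated genotypes. HSD17B7 in knockdown ranged from -1.36 to 0.039. The cause of these changes was not tested.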
